A study of Homo sapiens with 9 samples.

Results

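ES-2 cells depleted of the RNA-binding protein IGF2BP1 were compared directly with ES-2 cells depleted of the transcription factor SRF. The established cell line ES-2 comes from an ovarian carcinoma. Cells of all groups were grown in DMEM with serum and harvested 72 h after transfection, and their total RNA was sequenced after depletion of ribosomal RNA. The groups were siIGF2BP1 (a pool of siRNAs directed at IGF2BP1), siSRF (a pool of siRNAs directed at SRF) and siC (a control siRNA), with 3 libraries each. The 6 knockdown libraries were tested against each other, and the siC libraries served as reference for direction only. Of the 58174 genes in the deposited tables, 22311 had a mean of at least 0.1 FPKM (a read count scaled by gene length and by the reads of the library) over the 6 knockdown libraries and were tested. The other genes had a mean below this level. Both knockdowns are transient, rest on 1 pool per target and were made in 1 cell line. The labels do not say whether the libraries of a group came from separate cultures, so p-values measure the spread between these libraries, which may be technical.

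IGF2BP1 is an oncofetal protein that binds to mRNAs in the cytoplasm, among them mRNAs carrying N6-methyladenosine (m6A), and is known to protect bound mRNAs from decay, including decay directed by microRNAs. SRF binds to CArG boxes in promoters and enhancers. It works with 2 families of co-factors, the ternary complex factors (ELK1, ELK3 and ELK4), which respond to ERK signalling and are known for immediate early genes, and the myocardin-related factors (MRTFA and MRTFB), which respond to actin and are known for genes of the cytoskeleton. The study addressed whether IGF2BP1 sustains SRF and the transcripts that depend on it. The direct comparison asks where the transcriptomes of the 2 knockdowns differ.

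The 6 knockdown libraries held between 7033869 and 9416175 reads on genes, with a median of 7554963.5. Libraries of a group differed by more than the sampling noise of reads, so none was the same library sequenced again. This does not tell whether they came from separate cultures. KRT7, KRT18 and VIM, markers of epithelial and mesenchymal state, were at 34.1 FPKM or more in all 9 libraries, whereas EPCAM, PAX8 and WT1, often seen in ovarian carcinoma, were below 0.262 FPKM in each. The blood markers PTPRC and CD3E and the red cell marker HBA1 were listed at 0 throughout. CD14, also a blood marker, had means of 0.539, 0.0821 and 0.106 FPKM in siIGF2BP1, siSRF and siC. It was not called (limma adjusted p = 0.0902). Of 12 markers of other cell types, 3 passed the filter, and CDH5, an endothelial cadherin, was at 14.1, 15.4 and 16.1 FPKM in siIGF2BP1 and at 7.53, 8.45 and 7.81 FPKM in siSRF (log2 difference 0.93, limma adjusted p = 2.43e-04). The summed level of the 3 markers that passed was 15.0 to 16.7 FPKM in siIGF2BP1, 7.70 to 8.67 FPKM in siSRF and 8.54 to 11.1 FPKM in siC, almost all of it CDH5, while the other endothelial markers PECAM1 and VWF stayed below 0.387 FPKM in every library.

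The targeted mRNAs followed the labels. IGF2BP1 (ENSG00000159217, chr17:48997385-49056145 on the plus strand, GRCh38) was at 4.18, 4.14 and 4.02 FPKM in the siIGF2BP1 libraries, at 13.7, 14.6 and 14.4 FPKM in the siSRF libraries and at 12.8, 13.5 and 12.1 FPKM in the siC libraries. All siIGF2BP1 libraries lay below all others. The log2 difference, siIGF2BP1 minus siSRF throughout, was -1.77 (standard error 0.054, 95% confidence interval -1.90 to -1.63, limma adjusted p = 1.35e-05). SRF (ENSG00000112658, chr6:43171269-43181506 on the plus strand) was at 5.80, 5.42 and 6.80 FPKM in siIGF2BP1, at 1.63, 1.36 and 1.42 FPKM in siSRF and at 13.6, 14.1 and 16.0 FPKM in siC. The 3 groups did not overlap. SRF mRNA was thus lower than in siC in both knockdowns, with means of 6.01 ± 0.714 FPKM (SD, n = 3) in siIGF2BP1 and 1.47 ± 0.145 FPKM (SD, n = 3) in siSRF, and it was 4.08-fold higher in siIGF2BP1 (log2 difference 1.96, standard error 0.13, 95% confidence interval 1.65 to 2.27, limma adjusted p = 1.32e-04). For this and every other gene whose groups did not overlap, a two-sided exact permutation test gave p = 0.1, the smallest value that 3 libraries against 3 allow.

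The knockdowns differed widely. With limma-trend on log2(FPKM + 0.1) and a Benjamini-Hochberg adjusted p of up to 0.01 over all genes tested, 4460 genes were called, which is 20.0% of those tested. Of these, 1968 genes (8.82%) were higher in siIGF2BP1 and 2492 genes (11.2%) were higher in siSRF. The groups of 6 libraries separated without overlap for all called genes, and for 46.1% of all genes tested. Among 12507 protein-coding genes, 1711 (13.7%) were higher in siIGF2BP1 and 2290 (18.3%) in siSRF. These shares are the background for all gene lists described below, also where they are not repeated. Differences were larger among genes higher in siIGF2BP1, with 809 genes past 2-fold and 250 past 4-fold, against 460 and 96 genes higher in siSRF. The median log2 difference was 0.84 and -0.64, respectively, and 0.02 over all genes tested. Genes higher in siIGF2BP1 had a lower median level than genes higher in siSRF (7.10 against 13.5 FPKM). The part of level in these sizes was not tested. Of the called genes, 113 and 54 rested on a mean of fewer than 10 reads and are uncertain.

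**Figure D1:**
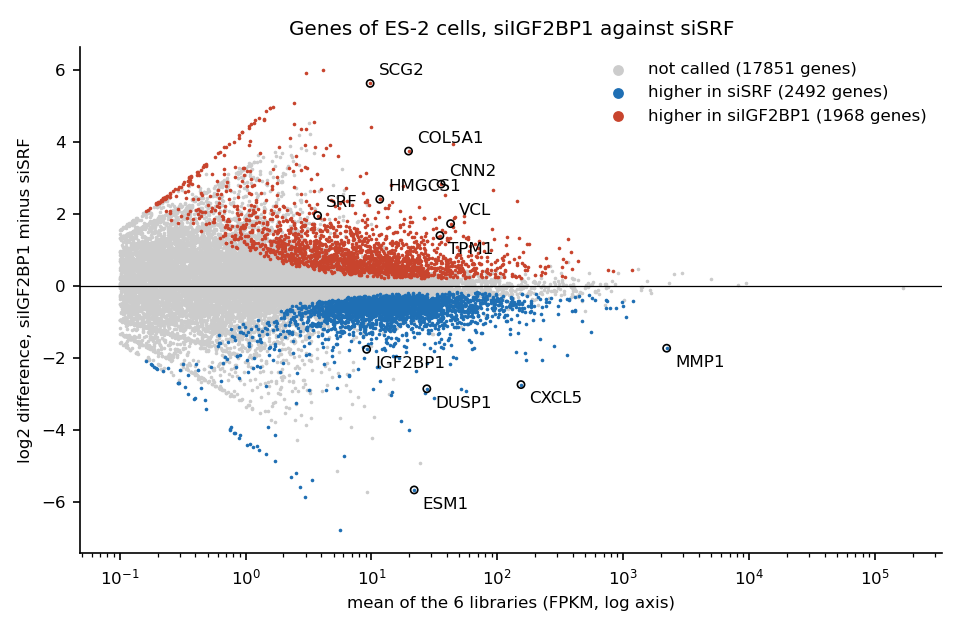
Each point is 1 of the 22311 genes tested, with the mean of the 6 knockdown libraries in FPKM on a log axis and the log2 difference (siIGF2BP1 minus siSRF) on the vertical axis. The 1968 genes called higher in siIGF2BP1 lie above 0, the 2492 called higher in siSRF below, and circles mark genes named in the text.

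The siC libraries give the direction of the called genes. For 1072 of the 1968 genes higher in siIGF2BP1, the siC mean was nearer to siIGF2BP1 on the log2 scale, and for 896 it was nearer to siSRF. For the 2492 genes higher in siSRF, siC was nearer to siIGF2BP1 for 1516 and nearer to siSRF for 976. All siC libraries lay between the 2 knockdowns, without overlap to either, for 726 and 977 of the called genes. These genes were at opposite sides of the control in the 2 knockdowns. The share of all called genes above or below all siC libraries in siIGF2BP1, or in siSRF, was not computed. Counts of a position in a single knockdown in the gene lists below therefore have no background. Counts of genes at opposite sides of siC, given below as both positions, have 726 of 1968 and 977 of 2492 as theirs. Genes were called for a difference between the knockdowns, which by itself favours such positions, so these counts do not show a trait of a list.

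SRF is known to bind to CArG boxes, and promoters were searched for their letters. The match searched was the 10-base CArG box with 6 bases of A or T in its middle, which reads as such on both strands, in the 300 bases from 250 before to 50 after the RefSeq start of each gene (GRCh38.p14). Below are the matches in the promoters of SRF and of cytoskeletal and immediate early genes described here, each with 10 bases to either side and the box in capitals, read along the strand of the gene.
SRF (site 1, chr6:43171229-43171258, plus strand): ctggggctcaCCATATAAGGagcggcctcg
SRF (site 2, chr6:43171249-43171278, plus strand): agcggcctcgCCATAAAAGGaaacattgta
CNN2 (chr19:1026509-1026538, plus strand): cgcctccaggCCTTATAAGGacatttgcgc
MYLK (chr3:123620623-123620652, minus strand): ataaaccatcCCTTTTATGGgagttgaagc
FLNA (chrX:154374709-154374738, minus strand): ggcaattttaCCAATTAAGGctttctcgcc
TPM4 (chr19:16067355-16067384, plus strand): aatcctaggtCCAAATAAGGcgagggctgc
FHL2 (chr2:105438595-105438624, minus strand): aatctggagaCCTTAAAAGGcacgtgggag
EGR1 (site 1, chr5:138465364-138465393, plus strand): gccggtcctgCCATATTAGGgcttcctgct
EGR1 (site 2, chr5:138465386-138465415, plus strand): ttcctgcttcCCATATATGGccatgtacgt
SRF and EGR1 each hold a pair of boxes within a short stretch, and the boxes of SRF begin 30 and 10 bases before its annotated start. Promoters were matched for 10178 of the 12507 protein-coding genes tested (81.4%). A box was found in 21 of 1370 promoters of genes higher in siIGF2BP1 (1.53%), in 17 of 1907 promoters of genes higher in siSRF (0.89%), in 73 of 6901 promoters of genes not called (1.06%) and in 454 of all 35116 promoters of the RefSeq table (1.29%). Shares were thus low in each class and were not tested against each other. A match is a string of letters in this window and not a site shown to bind SRF, and boxes in enhancers lie outside it.

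Among genes of the contractile cytoskeleton, more were higher in siIGF2BP1 than in siSRF. Of 30 genes for actins, tropomyosins and other contractile proteins, 27 were tested, 13 were higher in siIGF2BP1, 5 were higher in siSRF and 9 were not called. The median log2 difference was 0.36 against 0.02 over all genes tested. Over all protein-coding genes, 13.7% and 18.3% were called in these directions, so the count higher in siSRF was near the background. The largest difference was that of CNN2, calponin 2, an actin-binding protein whose box is shown above. It was at 68.3, 56.6 and 63.6 FPKM in siIGF2BP1, at 9.27, 8.88 and 8.07 FPKM in siSRF and at 35.5, 35.6 and 33.5 FPKM in siC. Every siIGF2BP1 library lay above and every siSRF library below the siC libraries (log2 difference 2.83, 95% confidence interval 2.63 to 3.03, limma adjusted p = 1.33e-05). MYLK, the kinase that activates myosin through its light chain, was at 25.1, 23.5 and 24.2 FPKM in siIGF2BP1, at 10.4, 10.9 and 10.4 FPKM in siSRF and at 14.5, 14.9 and 14.6 FPKM in siC (log2 difference 1.19, limma adjusted p = 2.31e-05). It too lay at opposite sides of siC. TPM1, a tropomyosin that runs along actin filaments, was at 49.9, 50.7 and 51.9 FPKM in siIGF2BP1 but at 19.2, 19.1 and 19.2 FPKM in siSRF and 20.5, 19.3 and 21.7 FPKM in siC (log2 difference 1.40, limma adjusted p = 8.39e-06). For TPM1 the siSRF libraries lay just below siC, and siIGF2BP1 lay far above.

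Further contractile genes were below siC in siSRF. DSTN, destrin, which severs actin filaments, had means of 14.4 ± 0.802 FPKM in siIGF2BP1, 6.96 ± 0.594 FPKM in siSRF and 14.0 ± 3.05 FPKM in siC (SD, n = 3). ACTB, the cytoplasmic beta-actin, was below siC in both knockdowns, at 574, 452 and 490.2 FPKM in siIGF2BP1, 243, 276 and 271 FPKM in siSRF and 749, 709 and 683 FPKM in siC, and was called between them (log2 difference 0.93, limma adjusted p = 8.03e-04). FLNA and TPM4, which carry a box, were higher in siIGF2BP1 by 0.73 and 0.69 on the log2 scale (limma adjusted p = 2.55e-04 and 7.44e-05). Of the 13 genes higher in siIGF2BP1, 12 were below all siC libraries in siSRF, 5 were above all siC libraries in siIGF2BP1, and 2 were below all siC libraries in both.

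Not all contractile genes went this way. FLNC, a filamin known from muscle, was at 82.7, 72.5 and 79.4 FPKM in siIGF2BP1, 149.9, 158 and 155 FPKM in siSRF and 85.4, 98.0 and 95.5 FPKM in siC (log2 difference -0.98, limma adjusted p = 8.05e-05). It was the highest in siSRF. The alpha-actinins ACTN1 and ACTN4, which cross-link actin, were lower in siIGF2BP1 by log2 differences of -0.52 and -0.55 (limma adjusted p = 2.78e-04 and 1.98e-04), with ACTN4 at 99.6, 146 and 149 FPKM on average in siIGF2BP1, siSRF and siC. MYL12A, a regulatory light chain of myosin, had a log2 difference of -0.42 (limma adjusted p = 0.00130). All 5 genes higher in siSRF were below every siC library in siIGF2BP1, and none was below every siC library in siSRF.

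**Figure D2:**
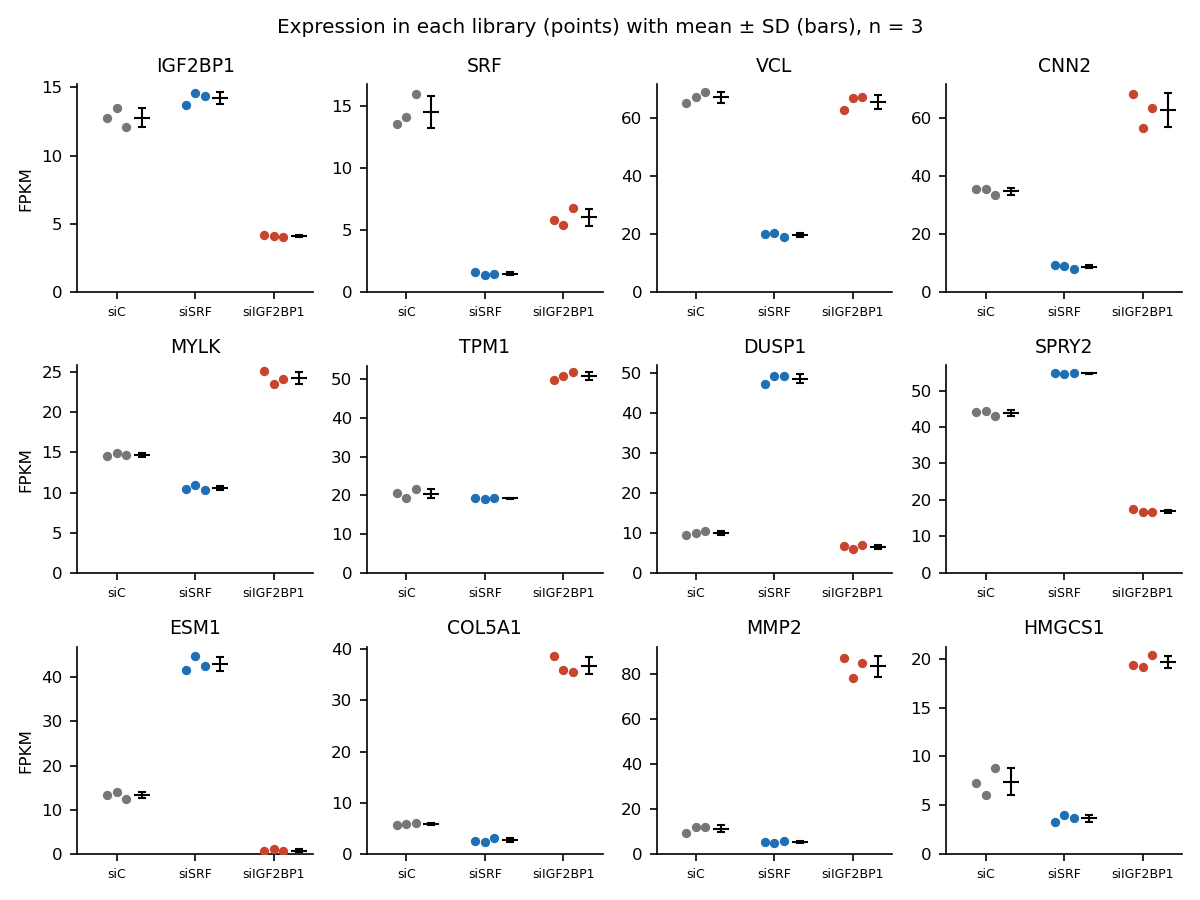
FPKM of 12 genes in each of the 9 libraries (points, grouped as siC, siSRF and siIGF2BP1) with the mean and SD of each group (bars, n = 3), each panel on its own axis from 0. IGF2BP1 and SRF show the depletions, VCL, CNN2 and MYLK fall in siSRF, and DUSP1, SPRY2 and ESM1 are high in siSRF and low in siIGF2BP1.

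Focal adhesion genes, which anchor actin to the membrane, were called in both directions, more of them higher in siIGF2BP1. Of 26 genes, 25 were tested, 8 were higher in siIGF2BP1, 4 were higher in siSRF and 13 were not called (median log2 difference 0.23). Over all protein-coding genes, 13.7% and 18.3% were called in these directions. The count higher in siIGF2BP1 thus exceeded the background, and the count higher in siSRF did not. VCL, vinculin, a known SRF target that links integrins to actin, was at 62.7, 66.7 and 67.1 FPKM in siIGF2BP1 and at 65.1, 67.1 and 69.0 FPKM in siC, whereas it was at 19.9, 20.3 and 18.8 FPKM in siSRF. The siIGF2BP1 and siC ranges overlapped, and siSRF lay far below (log2 difference 1.73, 95% confidence interval 1.62 to 1.84, limma adjusted p = 1.10e-05). PDLIM1, an adaptor with PDZ and LIM domains, had means of 38.3 ± 5.09, 14.5 ± 0.904 and 27.2 ± 5.96 FPKM in siIGF2BP1, siSRF and siC (log2 difference 1.39, limma adjusted p = 1.85e-04). FHL1 and PARVB were higher in siIGF2BP1 by 1.09 and 1.06 on the log2 scale. In the other direction, FHL2, an adaptor with LIM domains whose box is shown above, was at 19.4, 18.6 and 20.5 FPKM in siIGF2BP1, 31.1, 30.6 and 28.6 FPKM in siSRF and 24.4, 26.7 and 26.3 FPKM in siC (log2 difference -0.62, limma adjusted p = 3.67e-04). FERMT2, PDLIM5 and ILK were also higher in siSRF, with log2 differences of -0.47, -0.56 and -0.22.

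PDLIM7 and FOXK1, which the study examined as transcripts downstream of both proteins, did not pass the test between them. PDLIM7 was at 10.9, 10.5 and 9.27 FPKM in siIGF2BP1, 8.17, 8.84 and 9.11 FPKM in siSRF and 14.8, 14.8 and 15.0 FPKM in siC (log2 difference 0.23, 95% confidence interval 0.03 to 0.42, limma adjusted p = 0.0800). FOXK1, a forkhead transcription factor, was at 15.1, 13.9 and 15.0, 11.7, 13.1 and 12.8 and 18.4, 19.0 and 18.9 FPKM in the same order (log2 difference 0.23, 95% confidence interval 0.08 to 0.38, limma adjusted p = 0.0326). The intervals allow a modest excess in siIGF2BP1 for both, and FOXK1 was called by limma-voom on recovered reads (adjusted p = 0.00113).

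Immediate early genes and feedback inhibitors of ERK signalling were mostly higher in siSRF. Of 28 genes, 26 were tested, 15 were higher in siSRF, 2 were higher in siIGF2BP1 and 9 were not called, with a median log2 difference of -0.72. The summed level of the tested members was 379 to 428 FPKM in siIGF2BP1, 675 to 699 FPKM in siSRF and 536 to 560.1 FPKM in siC. DUSP1, a phosphatase that inactivates MAP kinases, was at 6.72, 6.04 and 7.02 FPKM in siIGF2BP1, 47.2, 49.2 and 49.2 FPKM in siSRF and 9.53, 9.99 and 10.5 FPKM in siC. It was above all siC libraries in siSRF and below all of them in siIGF2BP1 (log2 difference -2.86, 95% confidence interval -3.02 to -2.71, limma adjusted p = 8.39e-06). SPRY2, a Sprouty inhibitor of receptor tyrosine kinase signalling, was at 17.4, 16.6 and 16.6 FPKM in siIGF2BP1, 54.9, 54.6 and 54.8 FPKM in siSRF and 44.2, 44.3 and 43.0 FPKM in siC (log2 difference -1.69, limma adjusted p = 8.39e-06). DUSP5, a nuclear phosphatase of ERK, was at 19.5, 17.2 and 15.9 FPKM in siIGF2BP1, where siSRF (52.4, 52.4 and 49.9 FPKM) and siC (49.4, 52.8 and 49.8 FPKM) overlapped (log2 difference -1.55, limma adjusted p = 4.84e-05).

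EGR1, the immediate early transcription factor with a pair of CArG boxes, was low in all groups, at 0.208, 0.262 and 0.301 FPKM in siIGF2BP1, 1.16, 0.979 and 0.821 FPKM in siSRF and 0.917, 0.938 and 0.969 FPKM in siC. Its level in siSRF overlapped that of siC, and siIGF2BP1 lay below both (log2 difference -1.60, limma adjusted p = 0.00596). FOSL1, the most abundant member of the list, was at 112 ± 9.17 FPKM in siIGF2BP1, 158 ± 7.92 FPKM in siSRF and 158 ± 9.49 FPKM in siC (SD, n = 3). MYC, whose mRNA is known to be bound by IGF2BP1, was at 56.5, 52.2 and 56.2 FPKM in siIGF2BP1, 69.9, 74.6 and 73.7 FPKM in siSRF and 56.2, 56.5 and 54.9 FPKM in siC (log2 difference -0.40, limma adjusted p = 0.00113). Its siIGF2BP1 mean was close to siC, and siSRF was above. The exceptions of the list were KLF4 and ATF3, transcription factors that were higher in siIGF2BP1 by 1.47 and 1.39 on the log2 scale (limma adjusted p = 4.67e-04 and 0.00482). Of the 15 genes higher in siSRF, 11 were above all siC libraries in siSRF and 11 were below all of them in siIGF2BP1, with 7 in both positions.

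Of 6 genes for SRF co-factors, 5 were tested and 1 was called by limma, higher in siSRF. This is near the 18.3% of all protein-coding genes called in this direction. ELK3, a ternary complex factor, was at 23.1, 23.2 and 23.0 FPKM in siIGF2BP1, 30.3, 29.8 and 30.0 FPKM in siSRF and 26.5, 23.9 and 23.5 FPKM in siC (log2 difference -0.38, limma adjusted p = 3.18e-04). ELK1 and ELK4 had log2 differences of -0.28 (95% confidence interval -0.46 to -0.10) and -0.30 (-0.47 to -0.13) and did not pass the test (limma adjusted p = 0.0285 and 0.0197). MRTFA, listed as MKL1, had means of 2.56 ± 0.616 and 2.55 ± 0.190 FPKM in siIGF2BP1 and siSRF, with a 95% confidence interval of the difference of -0.45 to 0.43. MRTFB, listed as MKL2, was at 1.94, 1.87 and 1.72 FPKM in siIGF2BP1 and 1.25, 0.986 and 1.21 FPKM in siSRF (log2 difference 0.64, 95% confidence interval 0.25 to 1.03, limma adjusted p = 0.0250). It was the member with a positive difference, and by limma-voom on recovered reads it was called higher in siIGF2BP1 and ELK4 higher in siSRF (adjusted p = 3.13e-06 and 6.49e-04).

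Targets of YAP and TEAD, which also respond to tension of the cytoskeleton, were called in both directions, more of them higher in siIGF2BP1. All 22 genes were tested, 8 were higher in siIGF2BP1, 3 were higher in siSRF and 11 were not called (median log2 difference 0.11). The count higher in siIGF2BP1 was above the background of 13.7% of all protein-coding genes, and the count higher in siSRF was below that of 18.3%. AXL, a receptor tyrosine kinase, was at 516, 498 and 534 FPKM in siIGF2BP1, 208, 206 and 212 FPKM in siSRF and 256, 274 and 279.5 FPKM in siC (log2 difference 1.30, limma adjusted p = 1.38e-05). CTGF, a secreted matricellular protein, was at 32.9, 27.0 and 27.0 FPKM in siIGF2BP1, 95.0, 90.8 and 107 FPKM in siSRF and 43.4, 56.1 and 36.2 FPKM in siC (log2 difference -1.75, limma adjusted p = 7.78e-05). These 2 targets thus took opposite directions. ANKRD1, the most abundant of the list, had means of 589 ± 21.0 FPKM in siIGF2BP1 and 691 ± 32.1 FPKM in siSRF and did not pass the test (log2 difference -0.23, 95% confidence interval -0.36 to -0.10, limma adjusted p = 0.0205).

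**Figure D3:**
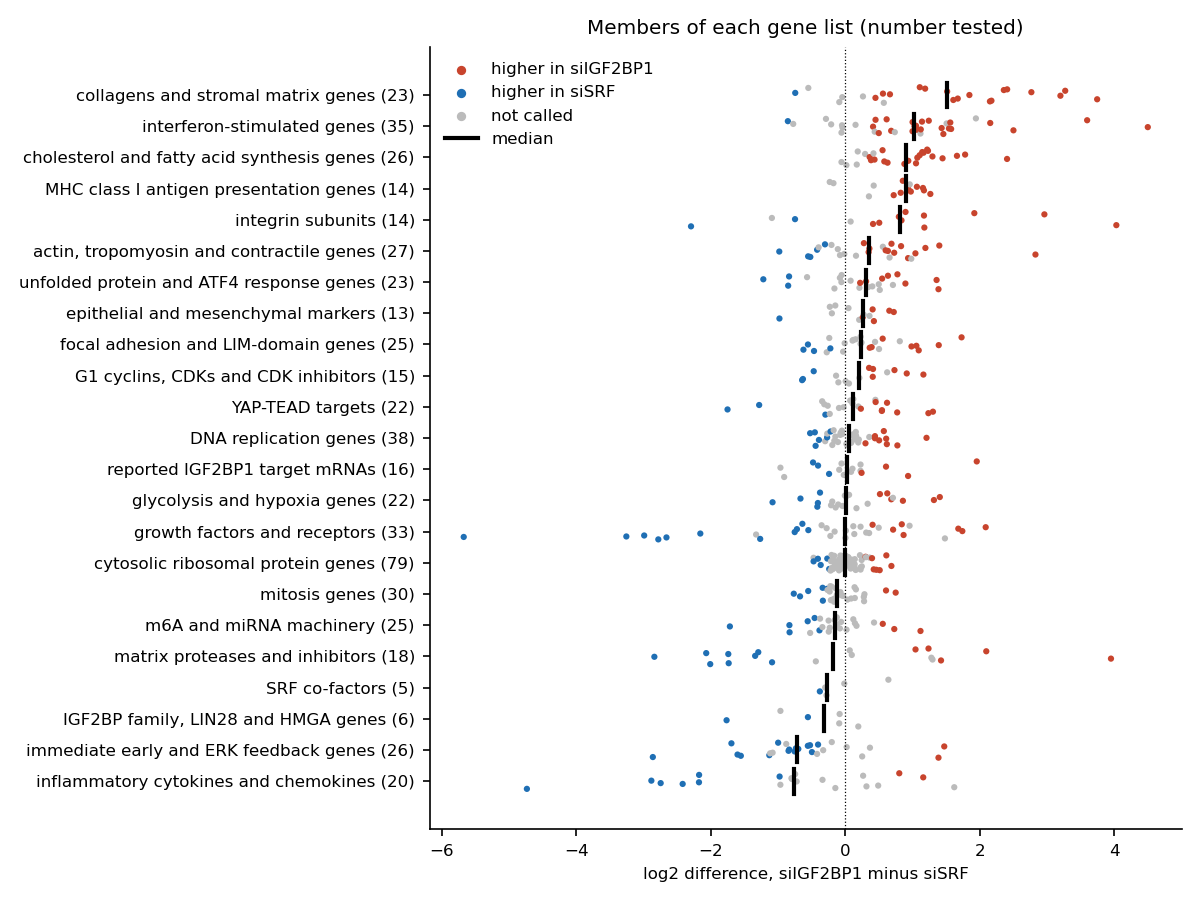
Log2 difference (siIGF2BP1 minus siSRF) of each tested member of 23 gene lists, one row per list with the number tested in brackets, points coloured by call and a black bar at the median. Medians run from -0.77 for inflammatory cytokines and chemokines to 1.52 for collagens and stromal matrix genes.

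Paralogs of IGF2BP1 and mRNAs reported as its targets were examined next. IGF2BP2 was at 33.0, 30.2 and 33.5 FPKM in siIGF2BP1, 47.6, 48.9 and 45.5 FPKM in siSRF and 27.1, 29.0 and 29.3 FPKM in siC (log2 difference -0.56, limma adjusted p = 5.35e-04). It was above siC in both knockdowns. IGF2BP3 had a log2 difference of -0.08 (95% confidence interval -0.22 to 0.06, limma adjusted p = 0.333). HMGA1, an architectural chromatin protein and the most abundant gene of this list, was at 426 ± 41.4 FPKM in siIGF2BP1, 372 ± 12.2 FPKM in siSRF and 654 ± 23.3 FPKM in siC, and its 2 knockdown groups did not pass the test (limma adjusted p = 0.110). Of 19 mRNAs reported as IGF2BP1 targets, 16 were tested, 4 were higher in siIGF2BP1, 3 were higher in siSRF and 9 were not called, with a median log2 difference of 0.03. Over all protein-coding genes, 13.7% and 18.3% were called in these directions, so the count higher in siSRF was near the background. SRF is 1 of the 4 higher in siIGF2BP1, and its low level in siSRF was set by the siRNA pool. The list also holds MKI67, PDLIM7 and FOXK1, which the study followed in these libraries, and is no independent evidence. MKI67, a marker of cycling cells, was lowest in siSRF, at 21.5, 17.3 and 17.3 FPKM in siIGF2BP1, 11.7, 12.5 and 12.3 FPKM in siSRF and 29.8, 34.6 and 21.3 FPKM in siC (log2 difference 0.61, limma adjusted p = 0.00380). Its siIGF2BP1 libraries overlapped those of siC. SIRT1 and CD44 were higher in siSRF, with log2 differences of -0.48 and -0.24 (limma adjusted p = 0.00825 and 0.00725), and CTNNB1 was higher in siIGF2BP1 by 0.24 (limma adjusted p = 0.00211).

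Among 25 genes of the m6A and microRNA machinery, all tested, 6 were higher in siSRF, 3 were higher in siIGF2BP1 and 16 were not called (median log2 difference -0.16), against 18.3% and 13.7% of all protein-coding genes called in these directions. Neither count stands far from this background. HDLBP, which encodes the RNA-binding protein vigilin, was at 18.0, 16.6 and 16.9 FPKM in siIGF2BP1, 57.6, 58.6 and 53.7 FPKM in siSRF and 67.2, 72.2 and 67.6 FPKM in siC. It was below siC in both knockdowns, far more so in siIGF2BP1 (log2 difference -1.72, 95% confidence interval -1.84 to -1.59, limma adjusted p = 1.33e-05). METTL3, the catalytic subunit of the m6A methyltransferase, was at 8.21, 8.81 and 8.05 FPKM in siIGF2BP1, 14.7, 15.5 and 14.6 FPKM in siSRF and 11.8, 11.9 and 13.5 FPKM in siC (log2 difference -0.83, limma adjusted p = 1.48e-04). WTAP, its regulatory partner, and ALKBH5, an m6A demethylase, were also higher in siSRF, with log2 differences of -0.56 and -0.38. AGO2, the slicing Argonaute, was at 8.48, 8.67 and 8.05 FPKM in siIGF2BP1, 14.5, 15.2 and 15.3 FPKM in siSRF and 10.5, 9.90 and 10.7 FPKM in siC (log2 difference -0.83, limma adjusted p = 1.11e-04). DICER1, which cuts microRNA precursors, went the other way, at 15.9, 16.8 and 15.7 FPKM in siIGF2BP1, 9.99, 9.29 and 9.79 FPKM in siSRF and 11.0, 10.2 and 10.6 FPKM in siC (log2 difference 0.73, limma adjusted p = 1.75e-04). AGO4 and TNRC6A were higher in siIGF2BP1 by 1.12 and 0.56 on the log2 scale.

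Secreted growth factors held some of the larger differences of the comparison. Of 41 growth factors and receptors, 33 were tested, 11 were higher in siSRF, 7 were higher in siIGF2BP1 and 15 were not called (median log2 difference 0.003). Over all protein-coding genes, 18.3% and 13.7% were called in these directions. ESM1, endocan, a proteoglycan secreted by endothelium and tumours (chr5:54977867-55022671, minus strand), was at 0.629, 1.12 and 0.569 FPKM in siIGF2BP1, 41.6, 44.7 and 42.5 FPKM in siSRF and 13.4, 13.9 and 12.5 FPKM in siC. It was 55.6-fold higher in siSRF by the means, and siC lay between (log2 difference -5.68, 95% confidence interval -6.22 to -5.13, limma adjusted p = 2.69e-05). FGF5, a fibroblast growth factor, was at 5.63, 6.24 and 5.85 FPKM in siIGF2BP1, 48.4, 46.8 and 47.7 FPKM in siSRF and 17.9, 15.3 and 19.1 FPKM in siC (log2 difference -2.99, limma adjusted p = 5.83e-06). FGF1 was at 0.371, 0.338 and 0.492 FPKM in siIGF2BP1, 4.89, 4.28 and 4.78 FPKM in siSRF and 0.747, 0.809 and 1.07 FPKM in siC (log2 difference -3.26, limma adjusted p = 7.33e-05). Both factors lay at opposite sides of siC. The EGF receptor ligands AREG, EREG and HBEGF were higher in siSRF, with log2 differences of -2.78, -2.66 and -2.16 (limma adjusted p = 0.00838, 2.31e-05 and 3.23e-05). MET, the receptor of hepatocyte growth factor, had means of 51.5 ± 1.76 and 75.5 ± 0.627 FPKM in siIGF2BP1 and siSRF.

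Members of the platelet-derived growth factor family were divided. PDGFB, a ligand, was at 7.46, 7.00 and 7.41 FPKM in siIGF2BP1, 2.12, 2.25 and 2.24 FPKM in siSRF and 3.26, 2.78 and 3.01 FPKM in siC (log2 difference 1.68, limma adjusted p = 3.68e-05). The receptor PDGFRB was at 1.08, 0.903 and 0.794 FPKM in siIGF2BP1 and at 0.0982, 0.138 and 0.190 FPKM in siSRF, where it was near the lower limit of the filter (log2 difference 2.09, limma adjusted p = 0.00331). The ligand PDGFA was higher in siSRF (log2 difference -0.72, limma adjusted p = 0.00107). PDGFC and PDGFRA had log2 differences of -0.28 and 0.50 and did not pass the test (limma adjusted p = 0.0112 and 0.0102). KIT, the receptor of stem cell factor, was higher in siIGF2BP1 by 1.74 on the log2 scale (limma adjusted p = 2.44e-04). FGFR1 was higher in siIGF2BP1 by 0.87 on the log2 scale (limma adjusted p = 4.70e-05). All 7 genes of the list that were higher in siIGF2BP1 were above every siC library there, and 10 of the 11 higher in siSRF were below every siC library in siIGF2BP1.

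Among inflammatory mediators, more genes were higher in siSRF than in siIGF2BP1. Of 27 cytokine, chemokine and related genes, 20 were tested, 7 were higher in siSRF, 2 were higher in siIGF2BP1 and 11 were not called (median log2 difference -0.77). CXCL5, a chemokine that attracts neutrophils, was at 40.1, 39.8 and 40.0 FPKM in siIGF2BP1, 276, 264 and 267 FPKM in siSRF and 94.2, 79.2 and 96.8 FPKM in siC (log2 difference -2.75, 95% confidence interval -2.82 to -2.67, limma adjusted p = 8.41e-07). BCL2A1, an anti-apoptotic protein induced by NF-kB, was at 0.240, 0.504 and 0.325 FPKM in siIGF2BP1, 12.4, 11.4 and 11.5 FPKM in siSRF and 3.76, 2.84 and 2.41 FPKM in siC (log2 difference -4.74, limma adjusted p = 4.19e-05). IL11, a cytokine of the IL-6 family, was at 1.22, 0.821 and 0.884 FPKM in siIGF2BP1, 8.97, 6.45 and 8.02 FPKM in siSRF and 0.794, 0.771 and 0.828 FPKM in siC (log2 difference -2.89, limma adjusted p = 1.35e-04). For IL11 the change lay in siSRF, since siIGF2BP1 overlapped siC, whereas CXCL5 and BCL2A1 lay at opposite sides of siC. CXCL3, CXCL8, PTGS2 and LIF were also higher in siSRF, by log2 differences of -2.42, -2.18, -2.17 and -0.98. IL7R and VCAM1, a cytokine receptor and an adhesion molecule, were the exceptions at 1.16 and 0.80 (limma adjusted p = 3.92e-05 and 3.50e-04). All 7 genes higher in siSRF were above every siC library there, and 5 of them were below every siC library in siIGF2BP1.

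Collagens and other stromal matrix genes were mostly higher in siIGF2BP1. Of 33 genes, 23 were tested, 17 were higher in siIGF2BP1, 1 was higher in siSRF and 5 were not called, with a median log2 difference of 1.52. COL5A1, a chain of fibrillar collagen V, was at 38.7, 36.0 and 35.6 FPKM in siIGF2BP1, 2.47, 2.42 and 3.09 FPKM in siSRF and 5.58, 5.91 and 5.96 FPKM in siC (log2 difference 3.75, 95% confidence interval 3.50 to 3.99, limma adjusted p = 1.10e-05). It was 13.8-fold higher in siIGF2BP1, with siC nearer to siSRF. LOXL1, a lysyl oxidase that cross-links elastin, was at 33.7, 29.0 and 30.0 FPKM in siIGF2BP1, 4.05, 5.04 and 4.29 FPKM in siSRF and 11.2, 12.4 and 10.6 FPKM in siC (log2 difference 2.77, limma adjusted p = 1.96e-05). FAP, a surface protease of activated fibroblasts, was at 3.99, 4.85 and 4.25 FPKM in siIGF2BP1, 0.420, 0.329 and 0.407 FPKM in siSRF and 1.69, 1.43 and 1.58 FPKM in siC (log2 difference 3.20, limma adjusted p = 6.64e-05). SERPINF1, which encodes a secreted antiangiogenic factor, had a log2 difference of 3.27 (limma adjusted p = 6.13e-05). LOX, a lysyl oxidase related to LOXL1, was the member higher in siSRF, at 139.9, 149 and 152 FPKM in siIGF2BP1, 252, 243 and 243 FPKM in siSRF and 106, 99.7 and 108 FPKM in siC (log2 difference -0.74, limma adjusted p = 8.87e-05). It was above siC in both knockdowns. Of the 17 genes higher in siIGF2BP1, 16 were above all siC libraries there and 10 were below all of them in siSRF. The shares of all called genes in these positions were not computed, so whether the matrix genes stand out in this was not tested.

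Integrin subunits, which form the receptors of this matrix, were also mostly higher in siIGF2BP1. Of 17 genes, 14 were tested, 10 were higher in siIGF2BP1, 2 were higher in siSRF and 2 were not called (median log2 difference 0.82). ITGB1, the beta subunit shared by most integrins and the most abundant of the list, was at 229, 239 and 247 FPKM in siIGF2BP1, 108, 105 and 105 FPKM in siSRF and 81.1, 75.3 and 92.0 FPKM in siC (log2 difference 1.17, 95% confidence interval 1.08 to 1.27, limma adjusted p = 1.54e-05). It was above siC in both knockdowns. ITGB5 was at 73.0, 71.9 and 74.2 FPKM in siIGF2BP1, 19.7, 18.1 and 19.9 FPKM in siSRF and 29.5, 29.3 and 31.7 FPKM in siC (log2 difference 1.92, limma adjusted p = 8.39e-06). ITGA11, a subunit that pairs with ITGB1 to bind collagen, was at 2.17, 2.21 and 2.05 FPKM in siIGF2BP1 and at 0.0129, 0.0303 and 0.0749 FPKM in siSRF (log2 difference 4.03, limma adjusted p = 2.00e-04). ITGB3 had a log2 difference of 2.96 (limma adjusted p = 0.00249). The laminin-binding ITGA6 was at 27.9, 30.2 and 29.7 FPKM in siIGF2BP1, 48.6, 51.2 and 47.9 FPKM in siSRF and 42.5, 38.1 and 47.8 FPKM in siC and was thus higher in siSRF (log2 difference -0.75, limma adjusted p = 1.09e-04), as was ITGA10 (log2 difference -2.30, limma adjusted p = 8.67e-04).

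Matrix proteases and their inhibitors took both directions. Of 26 genes, 18 were tested, 8 were higher in siSRF, 5 were higher in siIGF2BP1 and 5 were not called (median log2 difference -0.19). MMP2, a gelatinase, was at 87.1, 78.2 and 85.1 FPKM in siIGF2BP1, 5.26, 4.71 and 5.97 FPKM in siSRF and 9.46, 11.9 and 12.2 FPKM in siC (log2 difference 3.95, 95% confidence interval 3.73 to 4.18, limma adjusted p = 8.39e-06). MMP1, an interstitial collagenase, was at 975, 1021 and 1076 FPKM in siIGF2BP1, 3460.4, 3417 and 3340.4 FPKM in siSRF and 3823, 3832 and 4168 FPKM in siC (log2 difference -1.73, limma adjusted p = 2.43e-05). It was the most abundant gene of the list, and its low level was in siIGF2BP1. SERPINB2, an inhibitor of plasminogen activators, was at 82.3, 87.2 and 89.7 FPKM in siIGF2BP1, 392, 374 and 325 FPKM in siSRF and 408, 410.4 and 444 FPKM in siC (log2 difference -2.07, limma adjusted p = 2.16e-05). MMP3, ADAMTS1 and PLAUR, the receptor of urokinase, were higher in siSRF, with log2 differences of -2.84, -2.01 and -1.74 (limma adjusted p = 3.07e-04, 6.13e-06 and 1.40e-05). TIMP3, an inhibitor of metalloproteases, was at 41.6, 38.0 and 37.5 FPKM in siIGF2BP1, 17.2, 16.3 and 15.9 FPKM in siSRF and 35.9, 33.5 and 34.9 FPKM in siC (log2 difference 1.24, limma adjusted p = 3.64e-05). All 5 genes of the list higher in siIGF2BP1 were below every siC library in siSRF.

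Of 16 markers of epithelial and mesenchymal state, 13 were tested, 5 were higher in siIGF2BP1, 1 was higher in siSRF and 7 were not called (median log2 difference 0.26). Over all protein-coding genes, 13.7% and 18.3% were called in these directions. KRT18, a keratin of simple epithelia, was at 48.9, 34.1 and 42.4 FPKM in siIGF2BP1, 77.9, 82.4 and 84.7 FPKM in siSRF and 42.6, 45.7 and 41.8 FPKM in siC (log2 difference -0.98, limma adjusted p = 0.00183). The transcription factors SNAI2, TWIST1 and TWIST2, known for mesenchymal programmes, were higher in siIGF2BP1 by 0.72, 0.66 and 0.41 on the log2 scale. SNAI1, ZEB1 and ZEB2, factors of the same kind, had log2 differences of -0.20, -0.23 and -0.15 and were not called (limma adjusted p = 0.782, 0.0592 and 0.295). KRT7, another keratin, was higher in siIGF2BP1 by 0.26 (limma adjusted p = 0.00579). VIM had a log2 difference of 0.05 (95% confidence interval -0.09 to 0.18) and did not pass the test.

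Genes induced by interferons were mostly higher in siIGF2BP1. Of 40 genes, 35 were tested, 22 were higher in siIGF2BP1, 1 was higher in siSRF and 12 were not called, with a median log2 difference of 1.03. IFITM1, a membrane protein that restricts virus entry, was at 5.07, 3.81 and 5.25 FPKM in siIGF2BP1, 0.130, 0.305 and 0 FPKM in siSRF and 0.280, 0.409 and 0.512 FPKM in siC (log2 difference 4.50, limma adjusted p = 0.00110). SAMD9L, an antiviral factor, was at 9.63, 10.4 and 10.5 FPKM in siIGF2BP1, 0.845, 0.815 and 0.608 FPKM in siSRF and 2.02, 1.63 and 2.19 FPKM in siC (log2 difference 3.60, limma adjusted p = 2.49e-05). OAS2 and IFI44L were at low levels, with means of 1.65 and 0.963 FPKM in siIGF2BP1, against 0.299 and 0.0860 FPKM in siSRF. DDX58, the sensor of viral RNA RIG-I, was the exception at 3.83, 3.56 and 3.50 FPKM in siIGF2BP1, 6.63, 6.68 and 6.61 FPKM in siSRF and 6.61, 7.34 and 6.92 FPKM in siC (log2 difference -0.85, limma adjusted p = 2.74e-04). Of the 22 genes higher in siIGF2BP1, 20 were above all siC libraries there, 18 were below all of them in siSRF and 16 were in both positions.

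Genes of antigen presentation by MHC class I were also mostly higher in siIGF2BP1. Of 15 genes, 14 were tested, 9 were higher in siIGF2BP1, none was higher in siSRF by limma or limma-voom (0 at an unadjusted p of at most 0.05) and 5 were not called (median log2 difference 0.90). HLA-C was at 31.0, 31.2 and 33.3 FPKM in siIGF2BP1, 12.1, 16.3 and 14.2 FPKM in siSRF and 27.7, 23.6 and 22.7 FPKM in siC (log2 difference 1.17, limma adjusted p = 4.65e-04). HLA genes share sequence, so the split of reads among them is uncertain. NLRC5, the transactivator of class I genes, had means of 1.91 ± 0.0596, 0.806 ± 0.113 and 1.53 ± 0.101 FPKM in siIGF2BP1, siSRF and siC. The peptide transporter genes TAP1 and TAP2 had negative log2 differences of -0.18 and -0.23 and were not called (limma adjusted p = 0.646 and 0.628). Both were low, at most 0.533 and 0.573 FPKM in the 6 knockdown libraries. B2M, the light chain of the complex, was at 94.6, 105 and 108 FPKM in siIGF2BP1 and 90.3, 77.1 and 73.7 FPKM in siSRF and did not pass the test (log2 difference 0.35, 95% confidence interval 0.14 to 0.57, limma adjusted p = 0.0252).

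The list of cholesterol and fatty acid synthesis genes was mostly higher in siIGF2BP1, though its fatty acid genes were divided between called and not called. Of 27 genes, 26 were tested, 20 were higher in siIGF2BP1, none was higher in siSRF by limma or limma-voom (0 at an unadjusted p of at most 0.05) and 6 were not called, with a median log2 difference of 0.91. HMGCS1, which makes HMG-CoA at the start of the mevalonate pathway, was at 19.4, 19.2 and 20.4 FPKM in siIGF2BP1, 3.28, 3.97 and 3.66 FPKM in siSRF and 7.31, 6.04 and 8.85 FPKM in siC (log2 difference 2.41, 95% confidence interval 2.21 to 2.60, limma adjusted p = 1.54e-05). IDI1, an isomerase of this pathway, was at 28.1, 29.0 and 28.7 FPKM in siIGF2BP1, 10.7, 10.5 and 10.1 FPKM in siSRF and 20.7, 17.5 and 17.9 FPKM in siC (log2 difference 1.45, limma adjusted p = 1.15e-05). DHCR7, which makes the last step to cholesterol, was the most abundant member at 424, 402 and 423 FPKM in siIGF2BP1, 206, 206 and 189.7 FPKM in siSRF and 312, 334 and 332 FPKM in siC (log2 difference 1.05, limma adjusted p = 4.16e-05). These 3 genes lay at opposite sides of siC. MVK and MSMO1 were higher in siIGF2BP1 by 1.78 and 1.66 on the log2 scale (limma adjusted p = 2.44e-04 and 2.77e-05). Of the genes of fatty acid synthesis, SCD and FASN were higher in siIGF2BP1 by 1.16 and 0.58 (limma adjusted p = 2.77e-05 and 8.68e-04). ACACA, ELOVL6 and the regulator SREBF1 had log2 differences of 0.02, -0.06 and 0.19 and were not called (limma adjusted p = 0.847, 0.472 and 0.117). Over the list, 19 of the 20 genes were below all siC libraries in siSRF, 14 were above all of them in siIGF2BP1 and 13 were in both positions. The summed level of the tested members was 1201 to 1260.0 FPKM in siIGF2BP1, 636 to 659.9 FPKM in siSRF and 972 to 1023 FPKM in siC.

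Lists of stress and energy metabolism each had called genes in both directions. Of 23 genes of the unfolded protein and ATF4 responses, all tested, 8 were higher in siIGF2BP1, 3 were higher in siSRF and 12 were not called (median log2 difference 0.31). Over all protein-coding genes, 13.7% and 18.3% were called in these directions, so this list leaned to siIGF2BP1. PHGDH, which starts serine synthesis, was at 52.4, 44.5 and 49.6 FPKM in siIGF2BP1, 16.6, 20.9 and 19.6 FPKM in siSRF and 48.0, 54.1 and 48.2 FPKM in siC (log2 difference 1.36, limma adjusted p = 2.05e-04). PPP1R15A, a regulatory subunit of a phosphatase that ends the stress response, was at 20.1, 16.3 and 17.3 FPKM in siIGF2BP1, 42.1, 43.0 and 39.9 FPKM in siSRF and 24.6, 24.4 and 26.2 FPKM in siC (log2 difference -1.22, limma adjusted p = 1.41e-04). Of 25 genes of glycolysis and hypoxia, 22 were tested, 6 were higher in siIGF2BP1, 5 were higher in siSRF and 11 were not called (median log2 difference 0.004). Here the count higher in siSRF was near the background of 18.3%, and the count higher in siIGF2BP1 was above that of 13.7%. HK2, a hexokinase, was at 24.7, 24.8 and 24.5 FPKM in siIGF2BP1, 53.3, 52.0 and 51.7 FPKM in siSRF and 31.0, 31.9 and 35.3 FPKM in siC (log2 difference -1.08, limma adjusted p = 1.25e-05). PFKL and P4HA1 were higher in siIGF2BP1 by 1.41 and 1.32 on the log2 scale, and GAPDH had a log2 difference of -0.11 (95% confidence interval -0.27 to 0.06) and did not pass the test.

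Genes of the cell cycle took both directions. Of 38 DNA replication genes, all tested, 9 were higher in siIGF2BP1, 6 were higher in siSRF and 23 were not called (median log2 difference 0.05), against 13.7% and 18.3% of all protein-coding genes called in these directions. MCM6, a subunit of the replicative helicase, was at 30.1, 30.7 and 30.2 FPKM in siIGF2BP1, 13.0, 13.6 and 12.6 FPKM in siSRF and 19.8, 23.4 and 25.2 FPKM in siC (log2 difference 1.21, limma adjusted p = 1.80e-05). CCNE2 was higher in siIGF2BP1 by 0.78 on the log2 scale, while its paralog CCNE1 was higher in siSRF with a log2 difference of -0.44 (limma adjusted p = 0.00121 and 0.00806). Of 30 mitosis genes, all tested, 6 were higher in siSRF, 2 were higher in siIGF2BP1 and 22 were not called (median log2 difference -0.13). The share of mitosis genes higher in siSRF was thus near the background of 18.3%. ECT2, an activator of RhoA in cytokinesis, was at 26.1, 31.5 and 29.6 FPKM in siIGF2BP1, 51.5, 47.8 and 48.8 FPKM in siSRF and 34.3, 28.6 and 35.4 FPKM in siC (log2 difference -0.77, limma adjusted p = 5.68e-04). KIF20A, a kinesin of the same process, was at 34.4 ± 1.71 FPKM in siIGF2BP1 and 20.4 ± 0.700 FPKM in siSRF. The summed level of mitosis genes was 1076 to 1082 FPKM in siIGF2BP1, 1145 to 1187 FPKM in siSRF and 1317 to 1357 FPKM in siC.

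Of 17 G1 cyclins, CDKs and inhibitors, 15 were tested, 6 were higher in siIGF2BP1, 3 were higher in siSRF and 6 were not called (median log2 difference 0.21). The count higher in siSRF was near the background of 18.3%, and the count higher in siIGF2BP1 was above that of 13.7%. CDK6 was at 24.0, 24.3 and 24.4 FPKM in siIGF2BP1, 38.1, 36.7 and 37.9 FPKM in siSRF and 24.8, 23.8 and 24.3 FPKM in siC (log2 difference -0.63, limma adjusted p = 6.81e-05), and its partner kinase CDK4 had a log2 difference of -0.64 (limma adjusted p = 0.00118). CDKN2B and CDKN2C, inhibitors of both kinases, and RB1, their substrate, were higher in siIGF2BP1 by 1.16, 0.91 and 0.73 on the log2 scale (limma adjusted p = 9.38e-04, 0.00357 and 9.21e-04). The inhibitors CDKN1A, CDKN2A and CDKN2D had log2 differences of 0.21, -0.14 and 0.62 and were not called, nor were CDK2 and CCND3 (0.01 and -0.10). CCND1, the most abundant member, had means of 214 ± 9.90 and 206 ± 1.84 FPKM in siIGF2BP1 and siSRF and did not pass the test (95% confidence interval of the log2 difference -0.05 to 0.16). Among 79 genes for cytosolic ribosomal proteins, all tested, 7 were higher in siIGF2BP1, 5 were higher in siSRF and 67 were not called, which in both directions is below the 13.7% and 18.3% of all protein-coding genes, with a median log2 difference of -0.005, and RPL3 had the largest difference at 0.69 (limma adjusted p = 7.76e-05).

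The genes with the largest differences include several outside these lists. SCG2, secretogranin II, a protein of secretory granules (chr2:223596940-223602361, minus strand), was at 19.9, 18.7 and 19.1 FPKM in siIGF2BP1, 0.464, 0.202 and 0.249 FPKM in siSRF and 0.613, 0.433 and 0.356 FPKM in siC (log2 difference 5.63, 95% confidence interval 5.06 to 6.21, limma adjusted p = 3.20e-05). Its siSRF libraries overlapped those of siC. VIPR1, a receptor of vasoactive intestinal peptide, was at 4.47, 5.07 and 4.89 FPKM in siIGF2BP1, 0.0380, 0.119 and 0 FPKM in siSRF and 1.23, 1.61 and 1.03 FPKM in siC (log2 difference 5.08, limma adjusted p = 1.32e-04). MEST, an imprinted gene for a predicted hydrolase, had means of 2.78 ± 0.113 FPKM in siIGF2BP1 and 0.0177 ± 0.0155 FPKM in siSRF (log2 difference 4.62, limma adjusted p = 8.51e-05). ADAMTS15, RARRES3, DHRS3, PLSCR4, ABCC3 and ATP8B1 were higher in siIGF2BP1 by 4.36, 4.11, 3.93, 3.91, 3.86 and 3.84 on the log2 scale, each from a siSRF mean below 0.5 FPKM. Fold differences of such low genes are understated by the added 0.1 FPKM and imprecise. SERINC2, PLK2 and COLEC12 were among the genes with the smallest p, with SERINC2, a membrane protein of the SERINC family, at 161, 155 and 167 FPKM in siIGF2BP1, 25.8, 26.3 and 24.2 FPKM in siSRF and 77.2, 81.8 and 84.9 FPKM in siC (log2 difference 2.66, limma adjusted p = 6.11e-06). PLK2, a polo-like kinase, and COLEC12, a scavenger receptor, were higher in siIGF2BP1 by 1.49 and 1.90.

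**Figure D4:**
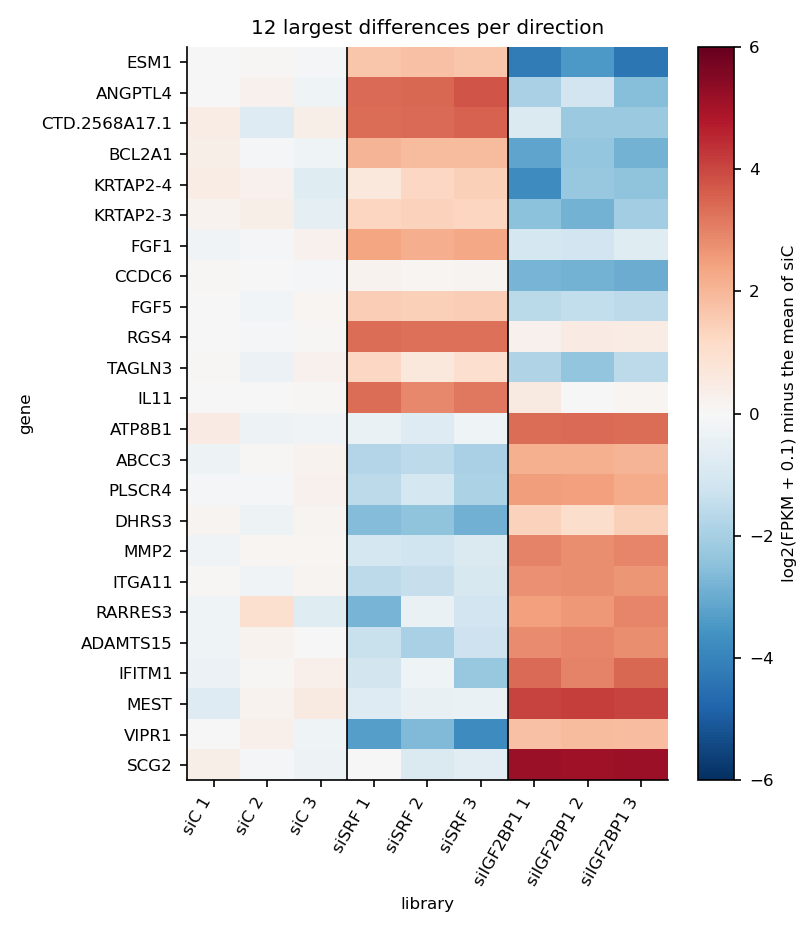
The 12 protein-coding genes with the largest differences in each direction (rows) in all 9 libraries (columns), coloured by log2(FPKM + 0.1) minus the mean of the siC libraries. ESM1 to IL11 are higher in siSRF and ATP8B1 to SCG2 higher in siIGF2BP1. Of these 24 genes, which were chosen for the size of the difference, 17 lay at opposite sides of all siC libraries in the 2 knockdowns, against 726 of the 1968 and 977 of the 2492 called genes.

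Among genes higher in siSRF, ANGPTL4, a secreted inhibitor of lipoprotein lipase, was at 0.0525, 0.166 and 0 FPKM in siIGF2BP1, 5.99, 6.23 and 7.81 FPKM in siSRF and 0.488, 0.593 and 0.390 FPKM in siC (log2 difference -5.40, limma adjusted p = 1.75e-04). TNFRSF10D, a decoy receptor of the death ligand TRAIL, was at 12.5, 12.4 and 12.6 FPKM in siIGF2BP1, 90.8, 92.3 and 90.8 FPKM in siSRF and 22.0, 20.4 and 23.1 FPKM in siC (log2 difference -2.86, limma adjusted p = 8.41e-07). RGS4, an inhibitor of G protein signalling, was at 11.9, 13.9 and 13.6 FPKM in siIGF2BP1, 102, 99.8 and 98.3 FPKM in siSRF and 10.1, 9.04 and 10.5 FPKM in siC (log2 difference -2.92, limma adjusted p = 8.39e-06). RGS4 was above siC in both knockdowns, far more so in siSRF, whereas TNFRSF10D and ANGPTL4 were below siC in siIGF2BP1. CCDC6, a coiled-coil protein, was high in siSRF and in siC alike, at 3.21, 3.14 and 2.76 FPKM in siIGF2BP1 against 26.6, 25.0 and 25.9 FPKM in siSRF and 24.2, 22.7 and 21.6 FPKM in siC (log2 difference -3.05, limma adjusted p = 8.39e-06). TAGLN3, a calponin-related protein, was higher in siSRF (log2 difference -2.90, limma adjusted p = 4.12e-04). KRTAP2-3 and KRTAP2-4, keratin-associated proteins with near-identical copies, were higher in siSRF, with log2 differences of -3.77 and -3.93, and the split of reads between them is uncertain. CTD.2568A17.1, listed as protein-coding on chromosome 19, overlaps another gene on its strand and had a log2 difference of -5.21 (limma adjusted p = 2.72e-04).

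Among genes of other biotypes, those with the largest differences (MIR6724-3, MIR491 and TRBJ2-5 higher in siSRF, MIR5585, MIR6772, MIR3121 and RNU7-187P higher in siIGF2BP1) rested on means of 4 reads or fewer and are not interpreted. The further genes given here were chosen after the data were examined, with a mean of at least 10 reads. LINC00707, a long non-coding RNA, was at 3.53, 2.63 and 3.73 FPKM in siIGF2BP1, 26.0, 26.4 and 24.9 FPKM in siSRF and 6.71, 5.99 and 6.67 FPKM in siC (log2 difference -2.94, limma adjusted p = 3.61e-05). LINC01151 was at 19.0, 20.2 and 17.8 FPKM in siIGF2BP1, 0.736, 0.961 and 0.713 FPKM in siSRF and 1.06, 1.80 and 2.18 FPKM in siC (log2 difference 4.41, limma adjusted p = 1.25e-05). TMEM108-AS1 lies antisense within TMEM108 and had a log2 difference of -5.59 (limma adjusted p = 5.03e-05), while TMEM108 itself was not called. The kit marks strand, but whether the counting used strand is not given in the sources used here. Of 512 intergenic long non-coding RNAs with at least 10 reads, 63 were higher in siIGF2BP1 and 33 in siSRF (median log2 difference 0.22), and of 471 antisense RNAs 27 and 24. Among 11545 protein-coding genes with at least 10 reads, the counts were 1698 and 2287, so neither class exceeded the protein-coding share.

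Small nuclear and nucleolar RNAs called by limma were all higher in siSRF. As background, 2287 of 11545 protein-coding genes with at least 10 reads were higher in siSRF and 1698 in siIGF2BP1. Of 30 snRNA genes with at least 10 reads, 9 were higher in siSRF and none in siIGF2BP1 by limma or limma-voom (0 at an unadjusted p of at most 0.05), with a median log2 difference of -0.92. Of 50 snoRNA genes, 9 were higher in siSRF and none in siIGF2BP1 by limma, against 1 in siIGF2BP1 by limma-voom and 1 at an unadjusted p of at most 0.05 (median log2 difference -0.50). The share of snoRNA genes higher in siSRF was thus near the background. RNU5A-1, a copy of the spliceosomal U5 RNA, was at 29.2, 28.4 and 38.7 FPKM in siIGF2BP1, 90.6, 73.8 and 58.5 FPKM in siSRF and 41.8, 29.2 and 35.8 FPKM in siC (log2 difference -1.20, limma adjusted p = 0.00392). SNORA5C, a guide for pseudouridine, was at 43.8, 45.0 and 42.2 FPKM in siIGF2BP1, 102, 107 and 117 FPKM in siSRF and 33.2, 43.0 and 55.5 FPKM in siC (log2 difference -1.31, limma adjusted p = 3.41e-05). In both genes siSRF lay above siC, while siIGF2BP1 overlapped siC. Other called members took other positions. SNORD46.2 lay at opposite sides of siC, with means of 71.2, 259 and 152 FPKM in siIGF2BP1, siSRF and siC. RNVU1-18 was below siC in siIGF2BP1, while siSRF overlapped siC (means of 12.2, 24.6 and 20.3 FPKM in the same order). Many of these genes have near-identical copies, so their values are uncertain.

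GC content of the transcript moved with the comparison. Genes of at least 1 FPKM were put into 10 bins of equal size by GC content. The median log2 difference was -0.17 in the bin with the lowest GC content (median 36.1%) and 0.08 in the bin with the highest (63.0%). The share of genes higher in siIGF2BP1 was 6.74% and 19.9% in these bins, and the share higher in siSRF was 21.7% and 10.1%. After removal of the trends along GC content and length from each library, 2051 genes were higher in siIGF2BP1 and 2708 in siSRF, and the medians of 4 lists, all close to 0 before (growth factors, glycolysis, reported IGF2BP1 targets and ribosomal proteins) took the opposite sign. The medians of the lists for matrix, interferon response and cholesterol and fatty acid synthesis were then 1.40, 0.95 and 0.88. That of immediate early genes was -0.79. The part of GC content in the single calls was not tested.

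**Figure D5:**
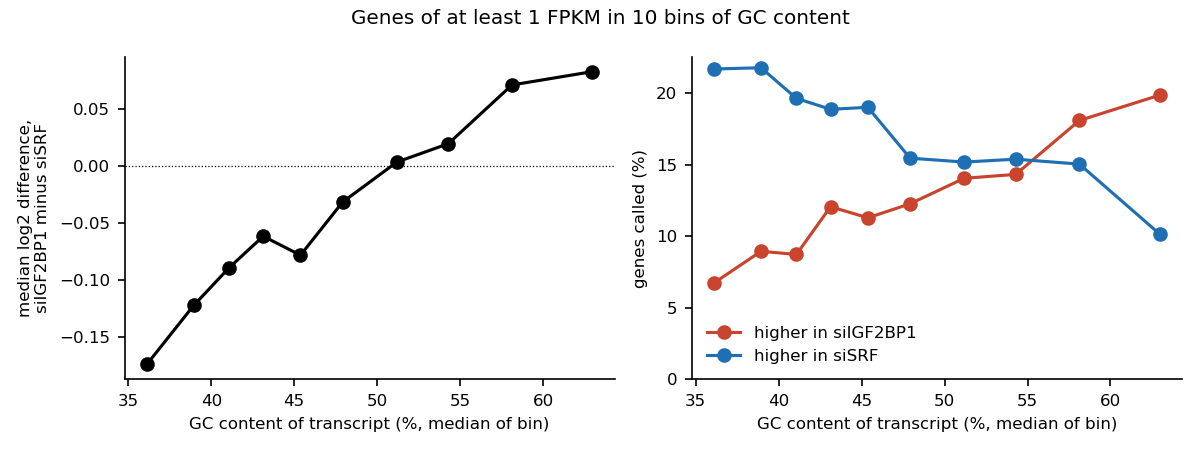
Genes of at least 1 FPKM in 10 bins of the GC content of their longest transcript (horizontal axis, median of each bin in percent). The left panel gives the median log2 difference (siIGF2BP1 minus siSRF), which is -0.17 in the bin of lowest and 0.08 in that of highest GC content, and the right panel the percentage of genes called in each direction.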

How the data were processed

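Total RNA-seq libraries were made 72 h after ES-2 cells received siC, siIGF2BP1 or siSRF (3 per condition), and samples were grouped by the sample labels. The authors clipped reads with Cutadapt 1.14, aligned them with HISAT2 2.1.0 to GRCh38, counted them on Ensembl genes with featureCounts 1.5.3 and scaled them by TMM factors in edgeR 3.18.1. The authors deposited FPKM values per library in 2 tables, which were joined by gene identifier and share identical siC columns. Their gene lengths were used, and their log2 fold changes, p-values and FDR values were not. The product of FPKM and length came in whole reads (tolerance 0.1) for 100% of the values, which gave the depth of 6421764 to 9416175 reads on genes per library.

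The 6 knockdown libraries were compared on log2(FPKM + 0.1) by limma 3.58.1 under R 4.3.3 (lmFit, eBayes with a trend, two-sided), keeping genes whose mean reached 0.1 FPKM. This differs from the authors' own test, since the deposited values are not counts. Benjamini-Hochberg adjustment ran over all genes kept, and genes were called at 0.01. The pseudocount understates changes of low genes. Exact permutation tests used SciPy 1.17.1. Equal replicate numbers in the labels did not pair the libraries (correlations of deviations -0.0668, -0.0419 and -0.018). Promoters are those of RefSeq (GRCh38.p14), and gene coordinates and GC content those of GENCODE 44.

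The comparison and the gene lists were chosen with earlier results of these data known. Lists were described by counts and medians, without a test. Named genes are the targeted genes, genes the paper names on these libraries, per direction the 12 protein-coding genes with the largest difference and the 5 with the smallest p (called, mean of 1 FPKM or more, no overlap between groups), 4 genes of other biotypes, and for each list its most abundant member and up to 4 called members per direction. FLNA, TPM4, PDGFA, PDGFC, PDGFRA, SNAI1, ZEB1, ZEB2, KRT7, CDKN1A, CDKN2A, CDKN2D, CDK2, CCND3, EREG, HBEGF, CXCL8, PTGS2, LIF, the snRNA and snoRNA genes and the genes of other biotypes with at least 10 reads were added after their values were seen. Some items of the lists are not reported here. Alternatives covered pseudocounts, filters, scaling, limma-voom, robust eBayes, a replicate block, all 9 libraries, GC content with length, and leaving out each library.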

Additional observations from a re-analysis of the deposited data

Results flagged for a closer look

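Among the 24 protein-coding genes with the largest differences, 17 were flagged because every siIGF2BP1 library and every siSRF library lay on opposite sides of all siC libraries. Over all called genes this held for 726 of 1968 and 977 of 2492, and the 24 genes were chosen for the size of their difference. The log2 difference (siIGF2BP1 minus siSRF) was -5.68 for ESM1, -5.4 for ANGPTL4, -5.21 for CTD.2568A17.1, -4.74 for BCL2A1, -3.93 for KRTAP2-4, -3.77 for KRTAP2-3, -3.26 for FGF1, -3.05 for CCDC6, -2.99 for FGF5 and -2.9 for TAGLN3. It was 5.08 for VIPR1, 4.36 for ADAMTS15, 4.03 for ITGA11, 3.95 for MMP2, 3.93 for DHRS3, 3.91 for PLSCR4 and 3.86 for ABCC3. The difference between the knockdowns was tested for each gene by limma, while the position against siC was not tested and rests on 3 libraries per group.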

How the results depend on the processing

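Against 1968 genes higher in siIGF2BP1 and 2492 higher in siSRF, limma-voom on the recovered reads called 3282 and 3630, and an adjusted p of at most 0.05 gave 3345 and 3787. A 2-fold difference in addition left 809 and 460 genes. A fit with replicate numbers as block called 872 and 1203, but the numbers did not pair the libraries. Leaving out each library gave 1214 to 1455 genes higher in siIGF2BP1 and 1577 to 1951 higher in siSRF, with fewer libraries in each fit. The first count moved by over 1.5 times without siIGF2BP1 replicate 1 (1303), without siIGF2BP1 replicate 3 (1214) and without siSRF replicate 2 (1308), and the second without siSRF replicate 2 (1577). A filter at a mean of 10 reads, chosen after seeing the data, called 2710 and 3196 of 14007 genes. The share of called genes that were higher in siIGF2BP1 was 44.1%, with a range of 39.8% to 47.5% over the alternatives, except that it was 63.8% where a 2-fold difference was also asked for. IGF2BP1 mRNA (log2 difference -1.84 to -1.57) and SRF mRNA (1.5 to 2.03) were called under each alternative run, and no named gene reversed. Of 181 named genes called, the block lost 50, limma-voom 5, the removal of GC content and length 2 and leaving out 1 library 18 to 27. Of 16 named genes not called, limma-voom called 8 (ELK4, MKL2, FOXK1, ANKRD1, HMGA1, B2M, GAPDH and CALR). Counting depth limits genes with few reads, of which 167 called genes had a mean under 10.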
